A study of Mus musculus with 8 samples.

Results

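A set of 10 genes of the Notch pathway was followed in fibro/adipogenic progenitors (FAPs) of dystrophic muscle. They were the receptors *Notch1*, *Notch2* and *Notch3*, the ligands *Jag1* and *Dll1*, and the target genes *Hes1*, *Hey1*, *Hey2*, *Heyl* and *Nrarp*. These 10 genes were taken by name from the 31053 genes of the count files. Of the 10, 8 had at least 1 count and 5 had enough counts to be tested, namely *Notch1*, *Notch2*, *Notch3*, *Jag1* and *Hes1*. FAPs came from hind limb muscles of C57BL/10ScSn-Dmdmdx/J (*mdx*) mice aged 45 days, which lack dystrophin, and no wild type group was part of the RNA-seq. The sort took CD45-, CD31-, Integrin alpha-7-, SCA-1+ cells and split them by SCA-1 intensity into SCA1-High-FAPs and SCA1-Low-FAPs. Both cell states then spent 5 days in GM, a growth medium, with no inducer of adipogenesis, and each gave 4 libraries. By the deposited description the cell states were isolated from 4 mice, for 8 libraries in all. The *mdx* mutation is carried in every cell of the animal and by both groups, so the comparison is between cell states within a dystrophic background.

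Notch receptors are cut after they bind a ligand on a neighbouring cell, first by an ADAM protease and then by gamma-secretase. The freed intracellular domain enters the nucleus, where it joins the DNA-binding protein RBPJ and coactivators and switches on genes such as *Hes1*, the *Hey* genes and *Nrarp*. In skeletal muscle the pathway is best known for holding satellite cells in quiescence, and it is also known as a brake on adipogenesis of FAPs. An earlier report cited by the study describes FAPs from dystrophic mice as insensitive to this brake, and all FAPs here were from *mdx* mice.

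The promoters of *Jag1* and *Notch3* are shown because these were the members that differed between the cell states. That of *Hey2* is shown because it alone, of the member promoters searched, held the RBPJ core motif. Each line gives the 250 bases before the RefSeq start and the first 10 bases after it, 5′ to 3′ on the gene's own strand, from RefSeq promoters on GRCm38.p6. All 3 genes lie on the minus strand, and the regions are chr2:137116511-137116770 for *Jag1*, chr17:32166881-32167140 for *Notch3* and chr10:30842774-30843033 for *Hey2*. Capitals mark GTGGGAA or its reverse complement TTCCCAC.
Jag1: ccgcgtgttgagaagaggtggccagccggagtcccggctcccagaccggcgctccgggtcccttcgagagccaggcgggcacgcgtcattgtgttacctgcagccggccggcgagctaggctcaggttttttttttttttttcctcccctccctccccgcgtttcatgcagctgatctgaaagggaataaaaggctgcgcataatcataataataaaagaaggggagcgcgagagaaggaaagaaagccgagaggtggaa
Notch3: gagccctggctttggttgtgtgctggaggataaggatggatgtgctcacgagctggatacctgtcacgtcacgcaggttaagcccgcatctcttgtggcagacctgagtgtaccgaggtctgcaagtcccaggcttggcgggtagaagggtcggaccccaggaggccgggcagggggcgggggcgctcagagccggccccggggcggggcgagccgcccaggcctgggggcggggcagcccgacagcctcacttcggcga
Hey2: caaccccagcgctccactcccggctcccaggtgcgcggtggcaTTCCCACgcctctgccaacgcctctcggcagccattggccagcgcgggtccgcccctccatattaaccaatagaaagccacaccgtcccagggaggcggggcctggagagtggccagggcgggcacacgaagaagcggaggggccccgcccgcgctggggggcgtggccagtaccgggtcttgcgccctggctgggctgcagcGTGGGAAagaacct
RefSeq promoters of 300 bases, reaching 50 bases past the start, were matched by symbol for 7 of the 10 members (*Notch1*, *Notch2*, *Notch3*, *Jag1*, *Dll1*, *Hey2* and *Nrarp*), in 8 windows. GTGGGAA was searched on both strands and was found in 1 of these 8 windows, against 2097 of all 32851 promoters (6.38%). *Hey2* held it at 2 places, 207 bases before the start on the reverse strand and 4 bases before the start on the forward strand. The shorter core TGGGAA, which lies inside GTGGGAA, was also found in none of the searched member promoters but that of *Hey2*, against 25.6% of all promoters. No promoter sequence was available for *Hes1*, *Hey1* and *Heyl*, so these target genes were not searched for either motif. Over the pathway genes listed further on, 7 of 74 promoters (9.46%) held GTGGGAA. The windows of *Jag1* and *Notch3* had a GC content of 55.7% and 70%, with 22 and 25 CpG dinucleotides, and that of *Hey2* had 72.0% and 29, where the median promoter had 52.7% and 7.

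Between 1880561 and 3985656 counts per library fell on genes, so that 3 counts stood at 0.792 to 1.63 CPM (counts scaled to a common library size with TMM factors). Floors of this kind cover counting error only, and so do the exact intervals of the receptor shares given further on. The intervals of log2 fold changes come from the edgeR fit and also take in the spread between libraries. Within a cell state the median correlation of a library with the others ran from 0.910 to 0.946 on the log2 CPM scale, and SCA1-High-FAPs replicate 3 was the lowest. *Xist* counts were present in replicates 3 and 4 of both cell states and absent from replicates 1 and 2. All 10 FAP markers on a list of such genes were measured. Their summed levels were 13348 to 16244 CPM in SCA1-High-FAPs, against 8521 to 14267 CPM in SCA1-Low-FAPs. Most of each sum was collagen RNA, from *Col1a1* (means of 7558.5 and 6578 CPM) and *Col3a1* (5116.6 and 2511 CPM). The list was split. By the thresholds given further on, *Dpt*, *Dcn* and *Col3a1* were called with negative log2 fold changes (-2.42, -2.08 and -1.03). *Thy1* and *Ly6a* were called with positive ones (0.67 and 0.61), and the other markers were not called. *Ly6a*, which encodes SCA-1, stood at a mean of 711 CPM in SCA1-High-FAPs, against 1087 CPM in SCA1-Low-FAPs (0.61 ± 0.17 SE on the log2 scale, adjusted p = 0.0341), the opposite of the sort, so the names of the cell states refer to surface SCA-1 at the sort and not to *Ly6a* RNA after culture. Each log2 fold change sets SCA1-Low-FAPs against SCA1-High-FAPs and is negative where the gene was higher in SCA1-High-FAPs.

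Of the 5 tested members, *Jag1* and *Notch3* were called and both were higher in SCA1-High-FAPs. *Notch1*, *Notch2* and *Hes1* were not called. To be called, a gene needed a log2 fold change past 0.5 in either direction and an adjusted p below 0.05 by the quasi-likelihood test of edgeR adjusted over all tested genes. These thresholds were passed by 782 of 10181 tested genes (7.68%), of which 444 were higher in SCA1-High-FAPs (4.36% of those tested) and 338 in SCA1-Low-FAPs (3.32%). No member was called higher in SCA1-Low-FAPs by edgeR or by DESeq2, and at an unadjusted p under 0.05 edgeR again gave *Jag1* and *Notch3*, where 2164 of all tested genes (21.3%) passed, 1103 of them (10.8%) higher in SCA1-High-FAPs. In RNA from whole cultures, fewer cells that express a gene and less of its RNA per cell cannot be told apart.

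**Figure D1:**
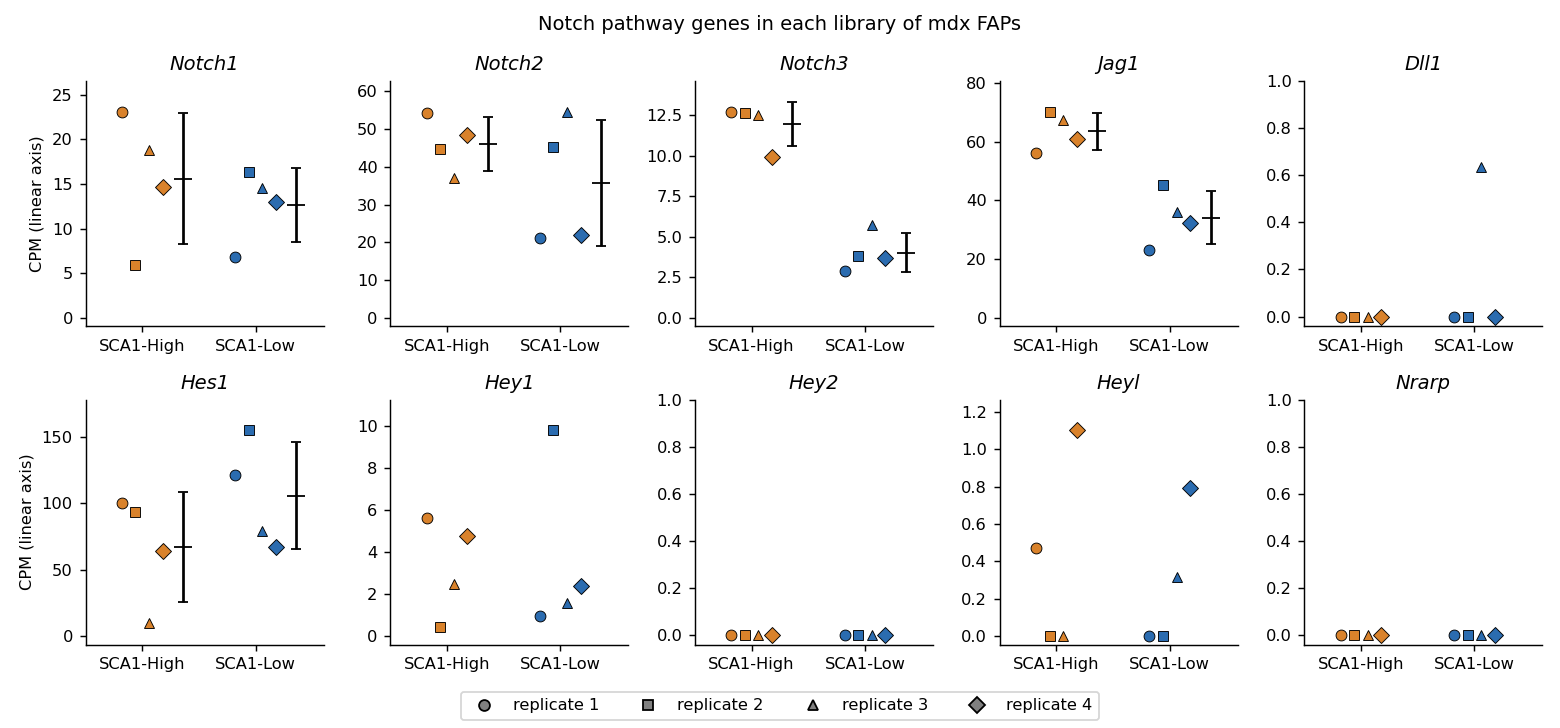
CPM (linear axis, own scale for each gene) of the 10 Notch genes in each library, with SCA1-High-FAPs in orange, SCA1-Low-FAPs in blue and a symbol for each replicate number; black bars give the mean ± SD of 4 libraries for the 5 tested genes. The 4 SCA1-High-FAPs libraries lie above the 4 SCA1-Low-FAPs libraries for *Notch3* and *Jag1*, the points of the cell states overlap for *Notch1*, *Notch2*, *Hes1* and *Hey1*, and *Hey2* and *Nrarp* lie at 0 throughout.

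*Notch3* (ENSMUSG00000038146, chr17:32120820-32166852, minus strand) encodes a receptor best known from smooth muscle cells and pericytes. In SCA1-High-FAPs it stood at 12.7, 12.7, 12.5 and 9.90 CPM in replicates 1 to 4, from 27, 28, 30 and 27 counts. In SCA1-Low-FAPs it stood at 2.90, 3.81, 5.71 and 3.70 CPM, from 6, 7, 18 and 14 counts. Every SCA1-High-FAPs library was above every SCA1-Low-FAPs library, as was true of 759 of the 10181 tested genes (7.46%). The means were 11.9 ± 1.37 and 4.03 ± 1.19 CPM (SD, n = 4), a 2.91-fold difference with a log2 fold change of -1.54 ± 0.46 SE (95% interval -2.51 to -0.57, adjusted p = 0.0487). This call is close to the threshold and rests on few counts. It was made again by DESeq2 (adjusted p = 0.0223) but not when genes of low count were kept in the test (adjusted p = 0.0866), nor in 7 of the 8 fits that each left out 1 library. In those 7 the adjusted p ran from 0.0741 to 0.138, and only without SCA1-Low-FAPs replicate 3 was it under the threshold (adjusted p = 0.0401, log2 fold change -1.77).

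Markers of mural cells, in which *Notch3* is well known, were split. All 8 mural markers had counts, and their summed level, most of it from *Cnn1*, was 62.7 to 108.5 CPM in SCA1-High-FAPs, against 145 to 217 CPM in SCA1-Low-FAPs. *Cspg4*, *Myh11* and *Cnn1* were called higher in SCA1-Low-FAPs, with log2 fold changes of 2.40, 1.85 and 1.34. The other mural markers were too low to test, and their means, SCA1-High-FAPs first, were 3.28 and 1.91 CPM for *Rgs5*, 5.72 and 0.861 CPM for *Abcc9*, 5.58 and 2.47 CPM for *Mcam*, 0.967 and 0.747 CPM for *Des*, and 0.367 and 0.725 CPM for *Kcnj8*. *Rgs5*, *Abcc9*, *Mcam* and *Des* thus had their higher mean in SCA1-High-FAPs, as *Notch3* did. The part of mural cells in the *Notch3* difference was not tested. An antisense gene that overlaps *Notch3*, *Gm17276*, had 1 count over all libraries.

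*Notch2* (ENSMUSG00000027878, chr3:98013527-98150361, plus strand) took most of the receptor counts in every library. It stood at 54.1, 44.8, 37.2 and 48.4 CPM in SCA1-High-FAPs, against 21.3, 45.2, 54.6 and 21.9 CPM in SCA1-Low-FAPs. The cell states overlapped, with replicates 1 and 4 of SCA1-Low-FAPs below all other libraries and replicate 3 above them. The means were 46.1 ± 7.11 and 35.7 ± 16.8 CPM (SD, n = 4), and the log2 fold change of -0.37 ± 0.29 SE (95% interval -0.99 to 0.25) did not pass the test (adjusted p = 0.521).

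*Notch1* (ENSMUSG00000026923, chr2:26457903-26516663, minus strand), the receptor most often studied in satellite cells and endothelium, was not called either. Its values were 23.07, 5.88, 18.8 and 14.7 CPM in SCA1-High-FAPs, against 6.77, 16.3, 14.6 and 12.9 CPM in SCA1-Low-FAPs. The lowest library belonged to SCA1-High-FAPs, and so did the highest. The log2 fold change was -0.30 ± 0.42 SE (95% interval -1.17 to 0.58, adjusted p = 0.753), an interval that holds changes of more than the 0.5 threshold in both directions. Of 8 endothelial markers, *Tie1*, *Emcn* and *Cldn5* had no counts, and the summed level of the list was 1.83 to 7.10 CPM in SCA1-High-FAPs, against 0.483 to 7.39 CPM in SCA1-Low-FAPs.

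The makeup of the receptor counts needs no normalisation between libraries. *Notch3* took 14.1%, 20.0%, 18.3% and 13.6% of the counts on the 3 receptors in SCA1-High-FAPs. In SCA1-Low-FAPs it took 9.38%, 5.83%, 7.63% and 9.59%, below each value of the other cell state. With 64 to 236 receptor counts per library these shares are coarse, and the exact (Clopper-Pearson) 95% interval of SCA1-Low-FAPs replicate 1 ran from 3.52% to 19.3%. The mean shares were 16.5% ± 3.14 and 8.11% ± 1.75 (SD, n = 4), a difference of -8.39 percentage points. A two-sided exact permutation test gave p = 0.0286, the smallest that 70 assignments of 4 against 4 allow. The exact permutation test gave p = 0.114 after Benjamini-Hochberg adjustment over the 4 shares tested, so the difference did not pass. With this share alone at the smallest p, the adjusted value could not have been lower. The adjusted test therefore cannot decide whether the *Notch3* share differed. *Notch2* held 62.9% ± 7.18 and 66.9% ± 6.96 of the receptor counts and *Notch1* 20.6% ± 8.18 and 25.0% ± 6.15, and neither share passed the test (exact permutation test, p = 0.429 and p = 0.514, both 0.686 after adjustment). The receptor *Notch4*, which is no member and was counted only for the pathway lists, had 9 counts over all libraries.

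**Figure D2:**
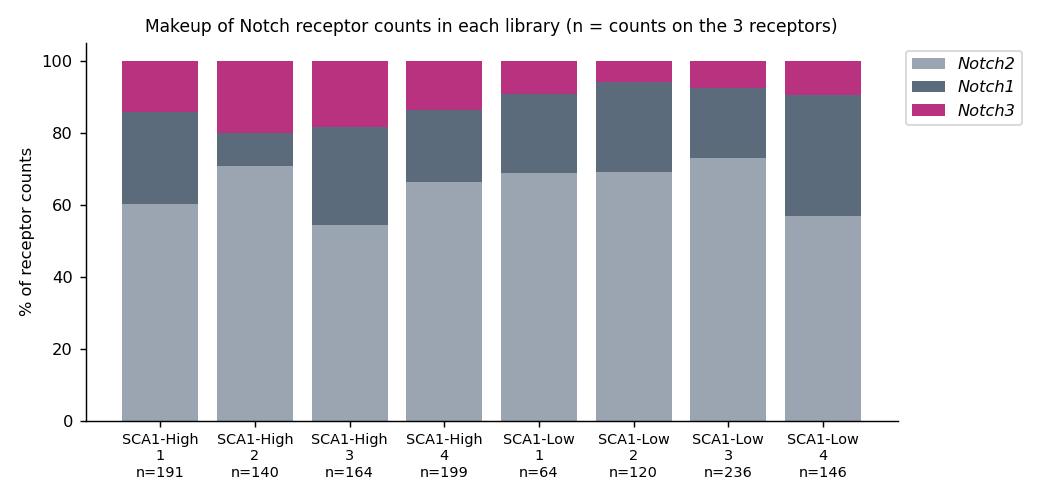
Percent of the counts on *Notch1*, *Notch2* and *Notch3* taken by each receptor in each of the 8 libraries (1 bar per library, from 0 to 100%), with the number of receptor counts under each bar. *Notch2* is the largest part of every bar, and the *Notch3* part is 13.6% to 20.0% in SCA1-High-FAPs and 5.83% to 9.59% in SCA1-Low-FAPs.

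*Jag1* (ENSMUSG00000027276, chr2:137081456-137116644, minus strand) encodes a transmembrane ligand of the Jagged family and was nearly the sole source of canonical ligand counts. Its promoter is the first of those printed above. SCA1-High-FAPs had 56.0, 70.1, 67.2 and 60.9 CPM, from 119, 155, 161 and 166 counts. SCA1-Low-FAPs had 23.2, 45.2, 35.8 and 32.2 CPM, from 48, 83, 113 and 122 counts. The cell states did not overlap, as in 7.46% of all tested genes in this direction. The lowest SCA1-High-FAPs library was at 56.0 CPM and the highest SCA1-Low-FAPs library at 45.2 CPM. The means were 63.5 ± 6.32 and 34.1 ± 9.10 CPM (SD, n = 4), which is a 1.87-fold difference and a log2 fold change of -0.90 ± 0.22 SE (95% interval -1.37 to -0.43, adjusted p = 0.0194). DESeq2 called the gene too (adjusted p = 0.0055). The call was lost without SCA1-High-FAPs replicate 2 (adjusted p = 0.0563), SCA1-Low-FAPs replicate 1 (adjusted p = 0.0720) or SCA1-Low-FAPs replicate 4 (adjusted p = 0.0631), while the log2 fold change stayed between -1.05 and -0.75 over the 8 fits.

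The differences of *Jag1* and *Notch3* were present in the libraries with *Xist* counts and in those without. In replicates 1 and 2 the mean of *Jag1* was 63.1 CPM in SCA1-High-FAPs, against 34.2 CPM in SCA1-Low-FAPs, and in replicates 3 and 4 it was 64.0 and 34.0 CPM. For *Notch3* the means were 12.7 and 3.36 CPM in replicates 1 and 2, and 11.2 and 4.70 CPM in replicates 3 and 4. With 2 libraries per cell state these subsets were not tested.

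Some markers of other cell types also stood higher in SCA1-High-FAPs. The summed level of 6 adipocyte markers, all but *Lep* with counts, was 1025 to 5372 CPM in SCA1-High-FAPs, against 108.5 to 623 CPM in SCA1-Low-FAPs. By the means, most of it was *Fabp4* (1540 and 224 CPM). Of the tested adipocyte markers *Adipoq* was called, and *Plin1*, *Fabp4* and *Cfd* were not. For 6 leucocyte markers, of which *Itgam* and *Adgre1* had no counts, the summed level was 25.3 to 48.0 and 12.5 to 19.3 CPM. Most of that sum was *Lyz2* (means of 28.7 and 10.5 CPM), the only leucocyte marker tested, which was called (log2 fold change -1.42, adjusted p = 0.0153). *Cd68* also had the higher mean in SCA1-High-FAPs (2.88 and 0.477 CPM). *Csf1r* had it in SCA1-Low-FAPs (3.32 and 5.48 CPM), and *Ptprc*, which encodes CD45, had 1 count in all. The summed level of the 4 tenocyte markers went the other way but overlapped, at 160 to 344 and 299 to 398 CPM. Most of it was *Fmod* (means of 229 and 331 CPM), and *Scx* and *Mkx* also had the higher mean in SCA1-Low-FAPs. *Tnmd* had the higher mean in SCA1-High-FAPs (24.0 and 8.20 CPM) and was not called. Among 6 satellite cell markers *Pax7*, *Myf5*, *Myod1* and *Myog* had no counts, with sums of 0 to 5.18 and 0 to 9.80 CPM. The part of these cell types in the Notch differences was not tested.

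*Dll1* (chr17:15367354-15376872, minus strand), a Delta family ligand, had 2 counts in all, both in SCA1-Low-FAPs replicate 3 (0.634 CPM), which is under the floor of 3 counts. Of the counts on *Jag1* and *Dll1* together, *Jag1* therefore took all in 7 libraries and 98.3% in that one. A difference in *Dll1* between the cell states was not detectable at this depth.

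*Hes1* (ENSMUSG00000022528, chr16:30064384-30067796, plus strand), a transcriptional repressor and the most widely used readout of Notch activity, was the target gene with the most counts. SCA1-High-FAPs had 100.3, 93.6, 10.0 and 63.8 CPM. SCA1-Low-FAPs had 121, 155, 79.0 and 67.3 CPM. Over all libraries the cell states overlapped. The library that stood lowest was SCA1-High-FAPs replicate 3 with 24 counts, against 174 to 284 in the other libraries. In replicates 1 and 2, without *Xist* counts, both SCA1-Low-FAPs libraries lay above both SCA1-High-FAPs libraries (means of 138 and 96.9 CPM). The same held in replicates 3 and 4, with *Xist* counts (means of 73.1 and 36.9 CPM). These subsets were not tested. The means were 66.9 ± 41.1 and 106 ± 40.1 CPM (SD, n = 4), and the log2 fold change of 0.65 ± 0.63 SE did not pass the test (95% interval -0.84 to 2.14, adjusted p = 0.631). Without SCA1-High-FAPs replicate 3 the log2 fold change was 0.29 (adjusted p = 0.620). With a term for libraries with *Xist* counts edgeR gave 0.73 (adjusted p = 0.385). *Hes1* was thus the tested member whose estimate had the other sign, with an interval that also spans 0.

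**Figure D3:**
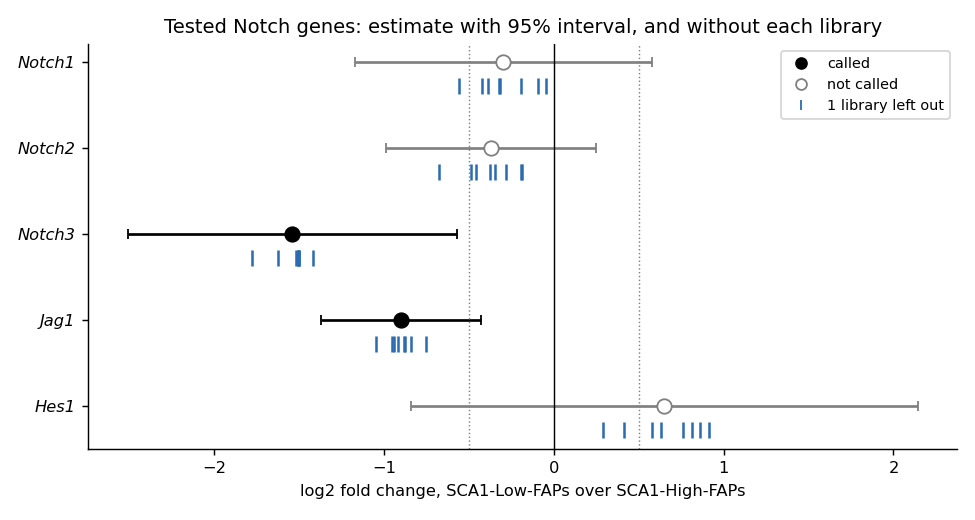
Log2 fold change between SCA1-Low-FAPs and SCA1-High-FAPs (x axis, negative where higher in SCA1-High-FAPs) for the 5 tested Notch genes, as the edgeR estimate with its 95% interval (filled where called), above blue ticks for the estimates with 1 library left out; dotted lines mark the threshold of 0.5 in size. The ticks of *Notch3* (-1.77 to -1.42) and *Jag1* (-1.05 to -0.75) lie left of -0.5, and the intervals of *Notch1*, *Notch2* and *Hes1* cross 0.

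The *Hey* genes encode repressors related to the HES proteins, and 2 of the 3 were at or near the limit of the depth. *Hey1* (chr3:8663359-8667256, minus strand) had 66 counts in all, with 12, 1, 6 and 13 in SCA1-High-FAPs and 2, 18, 5 and 9 in SCA1-Low-FAPs. The means of 3.34 ± 2.34 and 3.68 ± 4.12 CPM (SD, n = 4) were closer than the spread within either cell state. It was under the filter, and with no filter its log2 fold change was 0.10 ± 0.87 SE (adjusted p = 0.967). *Heyl* (chr4:123233556-123249875, plus strand) had 8 counts in 4 libraries, with 1, 0, 0 and 3 in SCA1-High-FAPs and 0, 0, 1 and 3 in SCA1-Low-FAPs. *Hey2* (chr10:30832359-30842801, minus strand), whose promoter with its 2 motif copies is printed above, had no count in any of the 8 libraries. *Nrarp* (chr2:25180758-25183339, plus strand), a feedback inhibitor of Notch signalling, likewise had none. Over all 8 libraries together, a count of 0 allows up to 0.148 CPM, taken as 3 counts of the summed library sizes. Expression of *Hey2* and *Nrarp* was not detectable at this depth, and an antisense gene over *Nrarp*, *Gm38287*, had 0 counts as well.

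The wider pathway was described with 8 lists of 68 genes, the 10 members included. Of these genes 51 could be tested and 8 had no counts. In all, 6 were called (11.8%, against 7.68% of all tested genes), all higher in SCA1-High-FAPs: *Notch3*, *Jag1*, *Mfap2*, *Mfap5*, *Kat2b* and *Cir1*. Of the 46 tested genes that are no members, 4 were called (8.7%), a share near that of all tested genes. The median log2 fold change was -0.27 over the 51 genes, 37 of which were negative, and -0.24 over the 46, where the median over all tested genes was 0.00. At an unadjusted p under 0.05 there were 13 of the 51 (25.5%), all 13 higher in SCA1-High-FAPs, against 21.3% of all tested genes in either direction and 10.8% in that direction. No gene of the lists was called higher in SCA1-Low-FAPs by edgeR or by DESeq2.

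**Figure D4:**
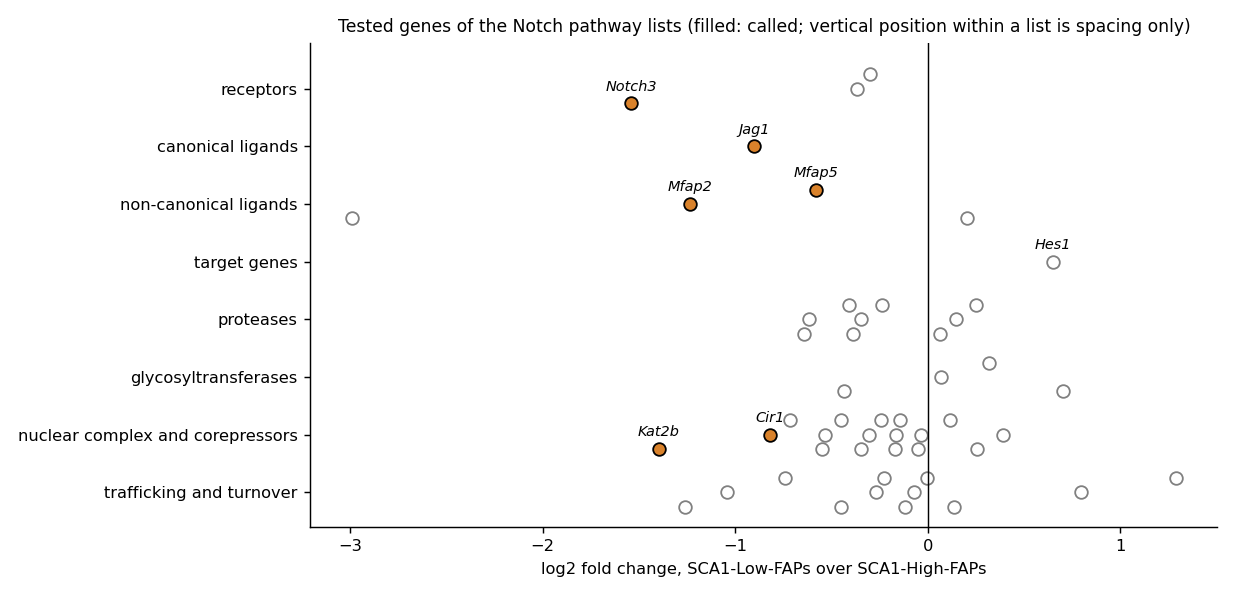
Log2 fold change between SCA1-Low-FAPs and SCA1-High-FAPs (x axis, negative where higher in SCA1-High-FAPs) for each of the 51 tested genes of the 8 Notch pathway lists (rows), where filled points are called genes and height within a row only spreads the points. The 6 called genes lie left of 0 in 4 lists, and the open points of the proteases, glycosyltransferases and trafficking genes lie on both sides of 0.

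Among the non-canonical ligands 2 of 4 tested genes were called, where 7.68% of all tested genes were. Both are best known as proteins of elastic microfibrils in the extracellular matrix. *Mfap2* had 57.9, 53.3, 49.3 and 38.5 CPM in SCA1-High-FAPs, against 14.98, 29.9, 27.0 and 13.2 CPM in SCA1-Low-FAPs (log2 fold change -1.23 ± 0.29 SE, adjusted p = 0.0129). *Mfap5* had 754, 956, 792 and 773 CPM in SCA1-High-FAPs, against 502, 589, 607 and 491 CPM in SCA1-Low-FAPs, a log2 difference of -0.58 ± 0.14 SE (adjusted p = 0.0167). Neither gene overlapped between the cell states. Of all tested genes, 7.46% likewise had every SCA1-High-FAPs library above every SCA1-Low-FAPs library. The call of *Mfap2* was lost without SCA1-Low-FAPs replicate 1 or 4, and that of *Mfap5* without either of these or SCA1-High-FAPs replicate 2. *Dlk1*, a membrane protein that holds back adipogenesis, was not called (0.20 ± 0.26 SE, adjusted p = 0.725). *Cntn1*, a neural adhesion protein named here after its value was seen, had the largest difference of the 51 tested genes (log2 fold change -2.99 ± 0.77 SE) but stayed above the threshold (adjusted p = 0.0551). DESeq2 called it, as did edgeR without SCA1-High-FAPs replicate 4 or without SCA1-Low-FAPs replicate 3. Of the canonical ligands, *Dll3* and *Dll4* had no counts and *Jag2* had 3.

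Of the 17 genes for the nuclear complex and corepressors, all were tested and 2 were called (11.8%, against 7.68% of all tested genes). *Kat2b*, an acetyltransferase that acts as a coactivator with the Notch intracellular domain, had 44.3, 33.5, 43.0 and 45.5 CPM in SCA1-High-FAPs. In SCA1-Low-FAPs it had 12.1, 19.1, 19.3 and 12.7 CPM, so that the cell states lay far apart (log2 fold change -1.40 ± 0.26 SE, adjusted p = 0.00338). It was called in every alternative and with any 1 library left out. *Cir1*, a corepressor that binds RBPJ, had 42.4, 47.9, 68.9 and 51.0 CPM in SCA1-High-FAPs, against 30.0, 27.8, 24.7 and 36.2 CPM in SCA1-Low-FAPs, which gave -0.82 ± 0.23 SE on the log2 scale (adjusted p = 0.0375). The call of *Cir1* was lost in each fit that left out a library except that without SCA1-High-FAPs replicate 1. *Crebbp*, the uncalled gene of this list with the most counts, had a log2 fold change of -0.35 ± 0.15 SE (adjusted p = 0.173). *Rbpj* itself, named after its value was seen, had -0.53 ± 0.19 SE (adjusted p = 0.0954).

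No gene was called among the 9 tested proteases, the 4 glycosyltransferases or the 12 genes of trafficking and turnover. At an unadjusted p under 0.05 edgeR gave 1 protease (*Adam17*), 0 glycosyltransferases and 3 trafficking genes (*Mib2*, *Dtx3l* and *Dtx4*), all 4 higher in SCA1-High-FAPs, and DESeq2 called 0, 0 and 1 (*Dtx3l*), names given after the values were seen. The shares at that unadjusted p were 11.1%, 0% and 25%, beside the 21.3% of all tested genes. The medians of the log2 fold change were -0.35, 0.20 and -0.17. *Furin*, which cuts Notch receptors on their way to the surface, had -0.24 ± 0.18 SE (adjusted p = 0.497), *Poglut1*, which adds glucose to their EGF repeats, 0.07 ± 0.18 SE (adjusted p = 0.880), and *Fbxw7*, which marks the intracellular domain for breakdown, 0.14 ± 0.21 SE (adjusted p = 0.782). The list of target genes held, beside the members, *Hes5* with no counts and *Hes7* with 5.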

How the data were processed

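RNA of 4 SCA1-High-FAPs and 4 SCA1-Low-FAPs cultures was made by the authors into 3′ mRNA libraries (QuantSeq), in which a transcript gives reads near its 3′ end. The authors trimmed the reads, aligned them with STAR to mm10, counted them on Ensembl genes with htseq-count and deposited raw counts per gene. Reads that fell on no gene (13.3% to 16.4% of uniquely aligned reads) or on several genes (0.605% to 0.793%) were left out of library sizes and tests. So were alignments at several positions, 37.5% to 43.3% of all that htseq-count tallied, which need not be the share of reads. Leaving them out lowers the counts of genes with near-identical copies. The strand setting is not given in the sources used here. Of 368 protein-coding genes whose last 500 bases are covered by a gene of the opposite strand, 62.8% kept 100 counts or more, against 9.5% of 147 covered on the same strand, as counts by strand would give.

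Genes were tested with edgeR 4.0.16 under R 4.3.3 (robust quasi-likelihood, TMM, filterByExpr with minima of 10 and 15 counts, Benjamini-Hochberg over 10181 genes), with cell state as the only term. SE is the log2 fold change divided by the root of F. The study used DESeq2, which was run as an alternative (1.42.0), with RLE factors, no filter, 10 counts in every library, the replicate number as a block, and each library left out in turn. A term for libraries with *Xist* counts was added after the data had been seen. Scripts were tested on simulated data. No pair of libraries within a cell state agreed within sampling noise, and pairs across the cell states were not checked. The sources do not say whether libraries with the same number share a mouse, so the p-values measure the spread between these cultures. Any sharing of mice between the cell states is not modelled by the main test. Members and lists were chosen with earlier results of these data known, and some genes also stand in lists the study drew from these samples, which is no independent evidence. Genes were named if members, if called in a pathway list, or if the uncalled gene with the most counts in its list. Names and positions are from GENCODE M21 (GRCm38) and promoters from RefSeq (GRCm38.p6). One list of marker genes is not reported here. CPM of 3′ libraries was not divided by gene length.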

Additional observations from a re-analysis of the deposited data

Results flagged for a closer look

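Groups of 4 libraries were searched for a value that stood apart from the other 3 by Dixon's ratio, in 22 groups, and chance alone flags about 1 group in 20. *Notch3* in SCA1-High-FAPs replicate 4 was at 9.90 CPM, below 3 values between 12.5 and 12.7 CPM, and it still lay above every SCA1-Low-FAPs library. *Hey1* in SCA1-Low-FAPs replicate 2 was at 9.80 CPM from 18 counts, where the other 3 libraries had 2, 5 and 9 counts. The share of *Jag1* in the ligand counts was 98.3% in SCA1-Low-FAPs replicate 3 and 100% in the other 3 libraries, because of 2 counts on *Dll1*. With those 3 tied at 100%, any other value would have been flagged, so the rate of 1 in 20 does not apply to it.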

How the results depend on the processing

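Of the 2 called members, 1 was called (*Jag1* each time) with no filter on low counts, with at least 10 counts in every library, with the replicate block in edgeR and in DESeq2, and with the term for *Xist*, which was added after seeing the data (*Notch3* adjusted p = 0.0548). The strict filter removed *Notch3* from the test, and for the other settings the cause was not tested. With 1 library left out, 0 to 2 members and 1 to 6 pathway genes were called, the lowest pathway counts being 1 without SCA1-Low-FAPs replicate 1 or 4 and 2 without SCA1-High-FAPs replicate 2. *Kat2b* was called in all of these fits. For pathway genes the other settings gave 5 to 8 against 6. Same-numbered libraries of the cell states did not deviate together (correlations of -0.050 to 0.0067), so they were taken to share only a number, and no library correlated best with its own number: the best match across the cell states was 1 with 2 and 3 with 4, in both directions. No crossed pairing was fitted, since the labels give none. The replicate block pairs libraries by number, which the correlations above do not bear out, so its results are given as an alternative only. With the replicate block edgeR gave *Notch3* a log2 fold change of -1.57 (adjusted p = 0.0955), *Jag1* -0.93 (adjusted p = 0.0247) and *Hes1* 0.88 (adjusted p = 0.324). DESeq2 with the block gave *Hes1* 0.92 (adjusted p = 0.109). The call of *Cir1* was lost with the block in edgeR (adjusted p = 0.0831) and DESeq2 (adjusted p = 0.106), and *Cntn1* was called with the block in both. The blocked *Notch3* share had an exact sign-flip p = 0.125, the smallest that 4 pairs allow. The *Jag1* share difference ran from -0.580 to 0 percentage points, being 0 without SCA1-Low-FAPs replicate 3, the library that holds the *Dll1* counts. Without SCA1-Low-FAPs replicate 4 the uncalled *Poglut1* and *Fbxw7* changed sign, with log2 fold changes over the 8 such fits of -0.011 to 0.15 and -0.031 to 0.24. No tested member and no called pathway gene changed direction in these fits. Depth limits *Dll1*, *Heyl*, *Hey1*, *Hey2* and *Nrarp* most, and *Notch3* had at most 30 counts in any library.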
